A study of Homo sapiens with 8 samples.

Results

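The genes described here encode the hypoxia-inducible factors and the proteins that sense oxygen and set the level of those factors. They were the 10 genes HIF1A, EPAS1, ARNT, ARNT2, VHL, EGLN1, HIF1AN, CUL2, ELOB and ELOC, taken by their place in the pathway, out of 11963 genes with a probe set of their own on the array. Every probe set that the array annotation gave to exactly 1 of these genes was used, which made 17 of the 22215 probe sets tested. The samples were 8 arrays of SH-SY5Y, an established cell line grown from a human neuroblastoma, a tumour of the sympathetic lineage. Knockdown clones B and G carried a stable RNAi construct against DJ-1, the protein made from PARK7, and control clones H and M carried a scramble construct, with 2 arrays per clone numbered 1 and 2. So 2 clones stand for each condition, each a selected transfectant of 1 line, and the labels name no change of oxygen for any group.

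A hypoxia-inducible factor is a pair of an oxygen-labile alpha subunit, made from HIF1A or EPAS1, and a stable beta subunit, made from ARNT or ARNT2. When oxygen is present, the prolyl hydroxylase made from EGLN1 marks the alpha subunit, the VHL protein recognises the mark, and a ubiquitin ligase built from VHL, ELOB, ELOC and CUL2 sends the subunit to the proteasome. The asparaginyl hydroxylase made from HIF1AN blocks the binding of the coactivators CBP and p300. This control acts on protein, which RNA arrays do not measure. EPAS1 is known for high activity in sympathetic and paraganglial cells, and DJ-1 has been studied as a regulator of the VHL pathway.

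The values are log2 probe-set signals, so a difference of 1 is a doubling. Where a gene had several probe sets they are called brighter or dimmer by their mean signal over the 8 arrays, which names them and does not compare amounts of RNA. PARK7 RNA, measured as the check of the labels, lay between 10.05 and 10.45 in the 4 knockdown arrays and between 12.95 and 13.14 in the 4 control arrays. The array medians lay between 8.03 and 8.08. The 3' minus 5' signal of ACTB, a measure of RNA integrity, was 0.24 to 0.46 in knockdown and 0.095 to 0.30 in control arrays, and its part in the differences below was not tested. Of the markers of its lineage, the transcription factor gene GATA3 averaged 13.12 in knockdown and 12.94 in control arrays. Not all of these markers were bright: TH averaged 6.05 and 5.99, with a mean signal at percentile 19.5 of all probe sets.

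The windows of 250 bases before the RefSeq transcription starts (GRCh38.p14) of EPAS1, HIF1A and EGLN1 are shown because these were the members whose clones lay furthest apart. EPAS1 lies at chr2:46297157-46297406 on the plus strand, HIF1A at chr14:61695263-61695512 on the plus strand, with the more upstream of its 2 listed starts, and EGLN1 at chr1:231422288-231422537 on the minus strand. Capitals mark matches to ACGTG or GCGTG, the core of the hypoxia response element to which these factors bind, searched on both strands.
EPAS1: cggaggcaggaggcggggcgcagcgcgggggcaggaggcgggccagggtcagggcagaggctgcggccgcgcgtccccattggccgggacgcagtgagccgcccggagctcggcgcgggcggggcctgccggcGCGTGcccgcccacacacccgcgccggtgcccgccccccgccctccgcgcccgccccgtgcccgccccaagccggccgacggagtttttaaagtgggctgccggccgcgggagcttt
HIF1A: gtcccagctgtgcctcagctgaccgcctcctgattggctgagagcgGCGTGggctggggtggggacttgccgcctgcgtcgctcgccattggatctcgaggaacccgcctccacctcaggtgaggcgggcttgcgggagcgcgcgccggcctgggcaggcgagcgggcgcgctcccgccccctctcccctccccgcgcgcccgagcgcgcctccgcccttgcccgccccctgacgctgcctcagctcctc
EGLN1: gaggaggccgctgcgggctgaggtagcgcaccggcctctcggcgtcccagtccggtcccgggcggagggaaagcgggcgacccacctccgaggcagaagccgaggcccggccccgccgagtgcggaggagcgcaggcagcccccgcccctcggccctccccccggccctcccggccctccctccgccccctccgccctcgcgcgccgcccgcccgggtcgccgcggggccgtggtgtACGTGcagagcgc
Each window shown held 1 match, 117 to 113 bases before the start in EPAS1, 204 to 200 in HIF1A and 13 to 9 in EGLN1. The window of the other listed HIF1A start held 0 matches. Of 10 windows of the 7 members in the table, 4 held the core (40.0%), beside 43.2% of all 35116 windows of this length. A match of these letters is a description of the sequence and does not show binding.

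The first comparison asked whether RNA of the members differed between knockdown and control. EPAS1, which encodes the alpha subunit HIF-2 alpha, was higher in the knockdown on both of its probe sets and passed the test on the brighter. HIF1A, its counterpart for HIF-1 alpha, was lower by a smaller amount and did not pass. The other 8 genes, the beta subunits, both hydroxylases and the 4 ligase components, did not pass either. By limma with clone as a random block, 1 of 17 probe sets was higher and 0 were lower, against 1.53% of all probe sets higher and 1.43% lower. At an unadjusted p under 0.05 there were 2 higher and 1 lower, beside 19.9% of all probe sets in either direction. The median difference of the 17 was 0.054, beside 0.0029 over all probe sets, with 12 positive and 5 negative.

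**Figure D1:**
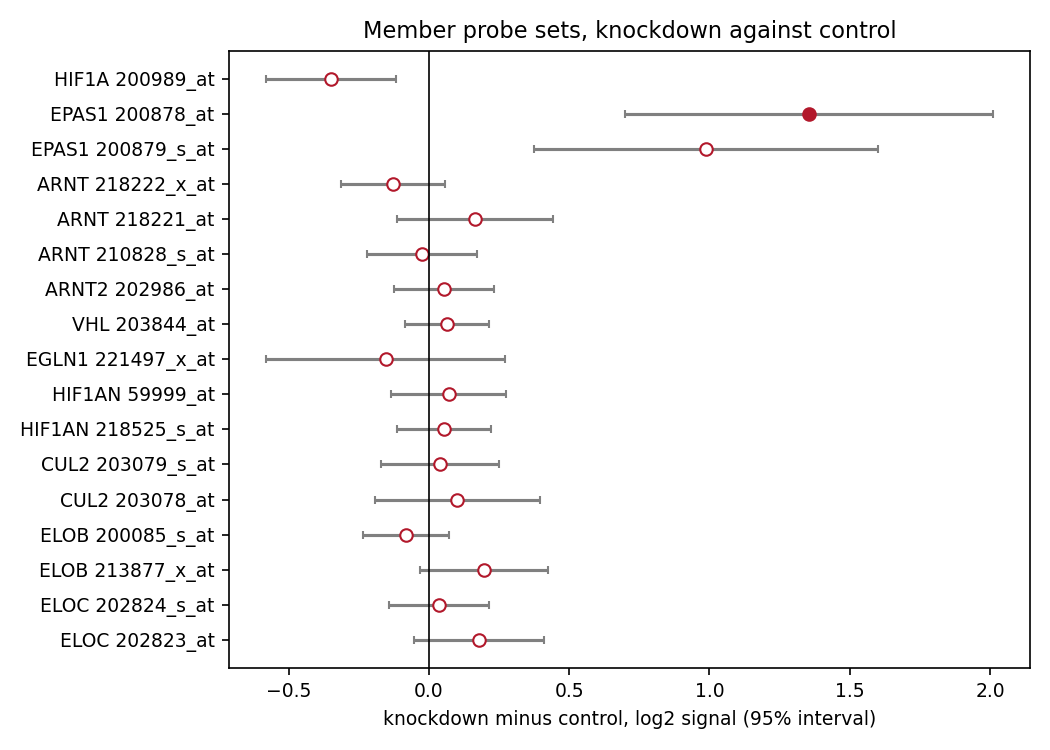
Difference between knockdown and control in log2 signal for the 17 probe sets (x axis) of the 10 genes (y axis), with 95% intervals from the limma fit. The filled point is the probe set that passed, the brighter EPAS1 set at 1.36, and open points did not pass.

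On the brighter EPAS1 probe set, the knockdown arrays read 12.22 and 12.96 in clone B and 12.16 and 12.68 in clone G. The control arrays read 11.19 and 12.02 in clone H and 10.82 and 10.57 in clone M. All 4 knockdown arrays lay above all 4 control arrays, but array H2 came within a small distance of the lowest knockdown array, G1. EPAS1 rose by 1.36 (SE 0.29, 95% interval 0.70 to 2.01), 2.56-fold, from 11.15 ± 0.64 to 12.51 ± 0.38 (SD, n = 4 arrays each), with limma adjusted p = 0.042. Arrays of the 2 conditions did not overlap for 1 of the 17 members, and for 11.7% of all probe sets. The difference was larger in size than that of 99.4% of probe sets.

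The dimmer EPAS1 probe set read 7.86 and 9.11 in clone B and 7.98 and 8.58 in clone G. It read 7.32 and 7.97 in clone H and 7.16 and 7.13 in clone M. B1 fell below H2 here, so the conditions overlapped at those arrays. The difference was 0.99 (SE 0.27, 95% interval 0.38 to 1.60) with limma adjusted p = 0.092. It passed without array H2, without clone H, and with the replicate block and no clone block (adjusted p = 0.030). In those fits 16.9%, 39.1% and 7.06% of all probe sets were called. Both EPAS1 probe sets followed the same course over the 8 arrays, with Pearson r = 0.95, a description over arrays that share clones and normalization.

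The direction of the brighter EPAS1 probe set was the same in 22 of 22 alternatives, from 0.90 to 1.81, while the call held in 8 and ended in 14. It ended with clone means, where the clone is the unit (limma adjusted p = 0.14), without the clone block (0.055) and after a second quantile normalization (0.051). It also ended with the mean of its probe sets (limma adjusted p = 0.056), in either replicate number alone, and without clone B or G (0.43 and 0.26). Leaving out any of the arrays B1, B2, G1, G2, M1 or M2 ended it as well (limma adjusted p of 0.068 to 0.22). Few probe sets of any gene passed in several of these fits. Of 22215 probe sets, 1 was called with clone means, 13 without clone B and 22 without clone G. In replicate 1 alone 18 were called, and in replicate 2 alone 1. The share called was 2.2% without the clone block, 2.93% after quantile normalization and 0.311% to 2.57% without 1 of those arrays, beside 2.96% in the main fit. Each fit that kept the call had a larger share than the main fit. It was 3.02% without the trend, 3.35% with the replicate block and 4.59% without the dimmest 25% of probe sets. It was 6.95% without array H1, 16.9% without H2, 39.1% without clone H and 9.53% without clone M. With the replicate block and no clone block it was 7.06%.

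**Figure D2:**
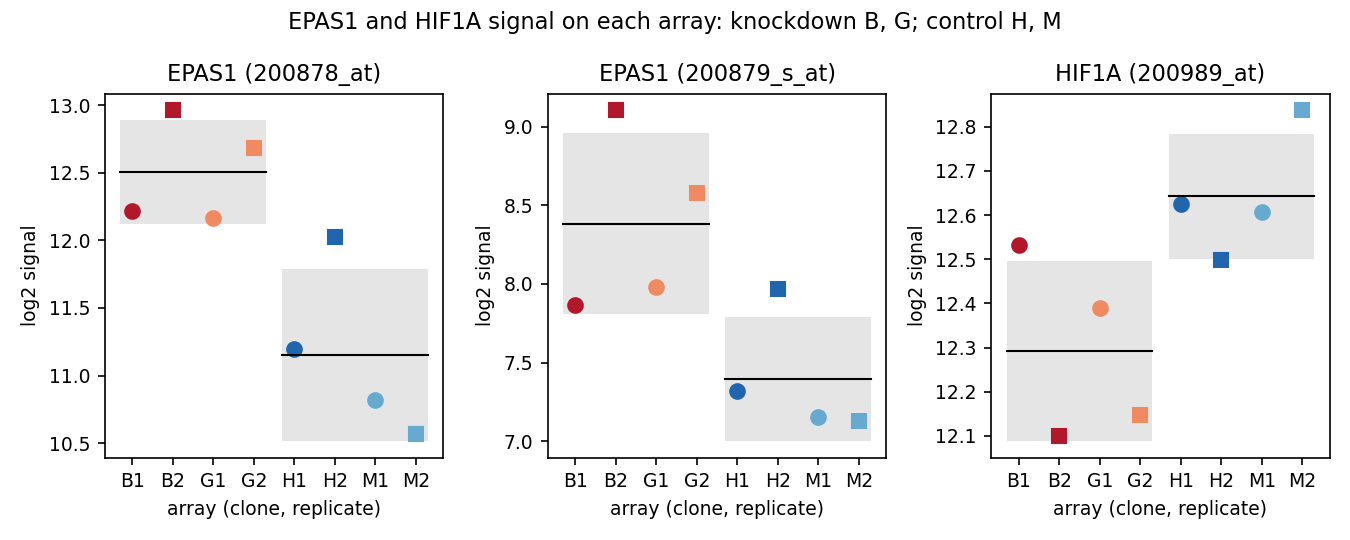
Log2 signal (y axis) on each of the 8 arrays (x axis, clone and replicate number; circles replicate 1, squares replicate 2) for the 2 EPAS1 probe sets and HIF1A. Lines are the means and bands the SD of the 4 arrays of a condition; for the brighter EPAS1 set the knockdown arrays lie between 12.16 and 12.96 and the control arrays between 10.57 and 12.02.

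HIF1A, with 1 probe set, read 12.53 and 12.10 in clone B and 12.39 and 12.15 in clone G. It read 12.62 and 12.50 in clone H and 12.61 and 12.84 in clone M. B1 lay above H2, and the other knockdown arrays lay below all control arrays. The difference was -0.35 (SE 0.10, 95% interval -0.58 to -0.12), a 1.27-fold ratio, from 12.64 ± 0.14 in control to 12.29 ± 0.20 in knockdown arrays (SD, n = 4 each), with limma adjusted p = 0.11. It passed without array H2 (-0.41, limma adjusted p = 0.017) and without clone H (-0.43, adjusted p = 0.0033), settings under which 16.9% and 39.1% of all probe sets were called. Under these settings 4 and 6 of the 17 members passed.

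The alpha subunit genes tended to run in opposite directions over the arrays, though not throughout. B1 read above G1 and H2 for both genes, and H1 read above M1 for both. B2 and G2 had the highest EPAS1 and the lowest HIF1A signal, and M2 had the lowest EPAS1 and the highest HIF1A signal. Pearson r between the brightest probe sets was -0.92 over 8 arrays, given as a description, since the arrays share 4 clones, a replicate number and one normalization.

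**Figure D3:**
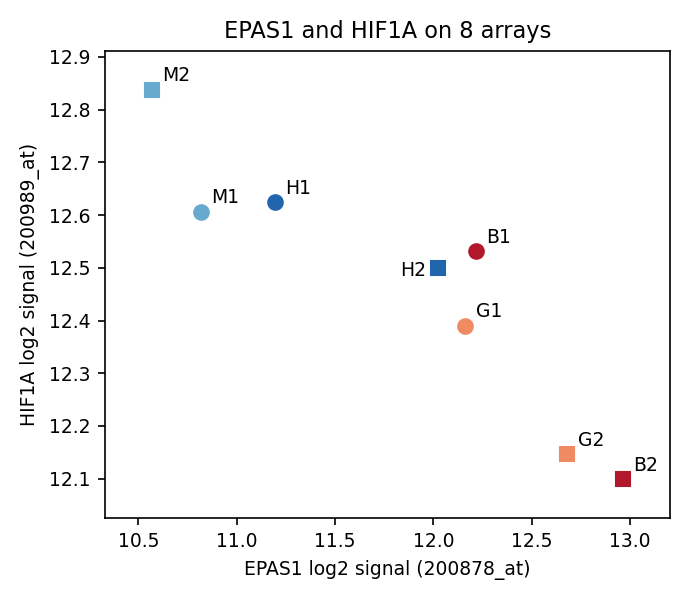
HIF1A log2 signal (y axis) against EPAS1 log2 signal (x axis) on the 8 arrays, labelled by clone and replicate number (circles replicate 1, squares replicate 2). The points run from M2 at 10.57 and 12.84 to B2 at 12.96 and 12.10.

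The beta subunit genes are the constitutive partners of both alpha subunits. ARNT had 3 probe sets, with differences of -0.13 on the brightest, 0.17 on the middle and -0.023 on the dimmest, and limma adjusted p of 0.42, 0.48 and 0.91. Their 95% intervals together ran from -0.31 to 0.44. The probe sets did not follow one another closely, with Pearson r of 0.80, 0.29 and 0.097 over the 8 arrays. ARNT2, the partner of more neural expression, had a knockdown range of 9.10 to 9.35 and a control range of 9.15 to 9.24. Its difference was 0.053 (95% interval -0.12 to 0.23, limma adjusted p = 0.74).

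Among the hydroxylases, EGLN1, the main oxygen sensor for HIF degradation, read 8.45 and 8.65 in clone B and 8.33 and 8.69 in clone G. It read 8.33 and 8.34 in clone H and 8.90 and 9.17 in clone M. Clone M alone stood above the other clones, and the knockdown arrays overlapped those of H. The difference between conditions was -0.15 (SE 0.19, 95% interval -0.58 to 0.27, limma adjusted p = 0.68). It was -0.50 without clone H, where it passed (limma adjusted p = 0.0023) and 39.1% of all probe sets were called. Without clone M it was 0.20 (adjusted p = 0.14). The single EGLN1 probe set, the brightest ARNT set and the dimmer ELOB set are of the x type, whose probes can match other transcripts. HIF1AN, which encodes the asparaginyl hydroxylase FIH, differed by 0.070 and 0.054 on its 2 probe sets, with limma adjusted p of 0.70 and 0.72. The 95% intervals were -0.14 to 0.28 and -0.11 to 0.22.

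The ligase components had 0 probe sets that passed in limma, beside 2.96% of all probe sets. At an unadjusted p under 0.05 they had 0 as well, beside 19.9% of all. VHL, the substrate receptor, read 4.05 to 4.30 in knockdown and 4.01 to 4.18 in control arrays. Its mean signal was at percentile 2.66 of all probe sets, so a level above background was not shown and its difference was 0.065 (95% interval -0.085 to 0.21). CUL2, the scaffold, differed by 0.040 on the brighter and 0.10 on the dimmer probe set, with limma adjusted p of 0.84 and 0.70.

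ELOB and ELOC encode the elongins that join VHL to the scaffold. The brighter ELOB probe set differed by -0.080 (95% interval -0.23 to 0.073) and the dimmer by 0.20 (-0.033 to 0.43), with limma adjusted p of 0.55 and 0.32. The dimmer set passed without array H2 or clone H, where 16.9% and 39.1% of all probe sets were called. These ELOB probe sets had a Pearson r of -0.13 over the arrays. ELOC differed by 0.037 on the brighter and 0.18 on the dimmer probe set, with limma adjusted p of 0.83 and 0.37, and the dimmer passed without clone H. Over the 7 genes other than EPAS1, HIF1A and EGLN1, the 13 differences lay between -0.13 and 0.20 and their 95% intervals between -0.31 and 0.44. These intervals bound the size of a difference in these arrays, except for VHL, whose signal was not shown to be above background, and a missed threshold does not show equal levels.

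The next comparison took the members clone by clone. For the brighter EPAS1 probe set the order of clone means was B at 12.59, G at 12.42, H at 11.61 and M at 10.69. Neighbours in that order did not pass the test, with B minus G at 0.17 (95% interval -0.61 to 0.95, limma adjusted p = 0.9999), G minus H at 0.81 (0.037 to 1.59, adjusted p = 0.85) and H minus M at 0.92 (0.14 to 1.69, adjusted p = 0.30). The 2 control clones lay apart by 0.92, between the distances of G and of B from H. Against clone M, EPAS1 was higher in B by 1.90 (SE 0.33) and in G by 1.73 (SE 0.33), with limma adjusted p of 0.026 and 0.037. Against clone H, B was higher by 0.98 with adjusted p = 0.50. These comparisons share the arrays of H or of M and are not independent of each other.

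EPAS1 was the 1 member that passed against M in either knockdown clone, where 4.5% of all probe sets were called for B and 3.55% for G. Against H, 0 of 17 members passed in limma for B or for G, with 0.171% and 0.0855% of all probe sets called. In each, 1 member had an unadjusted p under 0.05, beside 7.63% of all probe sets for B and 5.65% for G. Between H and M, 0 of 17 passed with 1.05% called. An unadjusted p under 0.05 was found for 2 members, EPAS1 and EGLN1, beside 13.2% of all probe sets. For EGLN1, H minus M was -0.70 (SE 0.17, limma adjusted p = 0.12). Between B and G, 0 of 17 passed, also at an unadjusted p under 0.05, with 0.0045% of all probe sets called and 0.936% at the unadjusted threshold. For HIF1A the clone means were 12.32 in B, 12.27 in G, 12.56 in H and 12.72 in M, and both knockdown clones lay below both control clones.

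**Figure D4:**
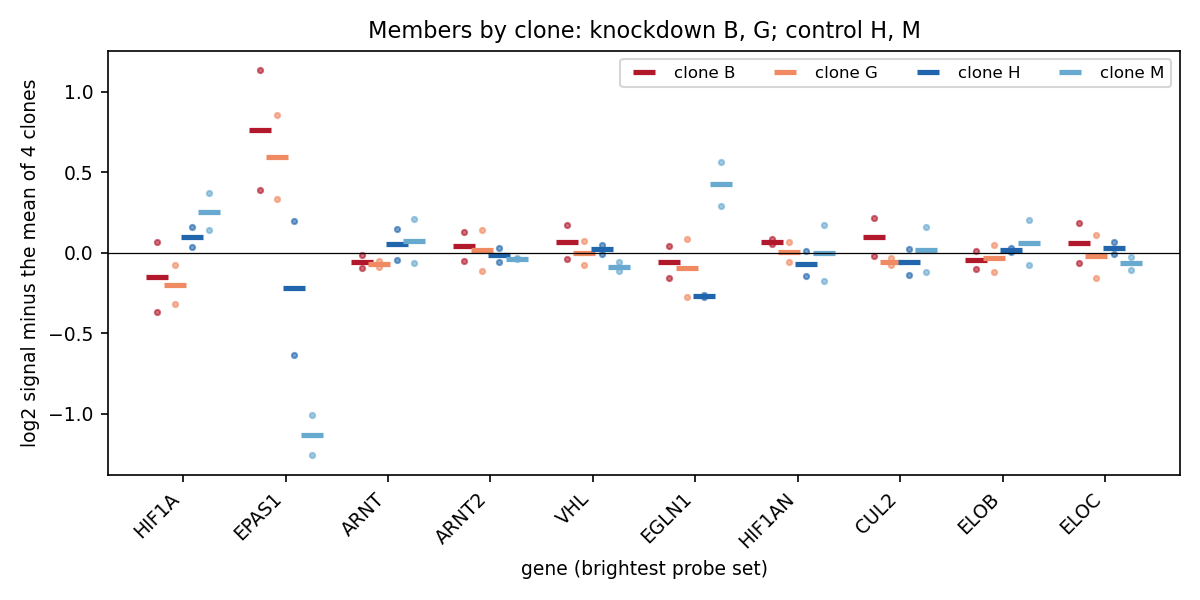
Log2 signal of the brightest probe set of each gene (x axis) minus the mean of the 4 clones (y axis), with bars for clone means and points for single arrays. EPAS1 separates in the order B, G, H, M, and EGLN1 stands apart in clone M at 9.03 against 8.33 in H.

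The arrays were then taken by replicate number. Array 2 of a clone read higher than array 1 for EPAS1 in 3 of 4 clones, by 0.75 in B, 0.52 in G and 0.83 in H, while M changed by -0.25. The mean change was 0.46 (SE 0.16, limma adjusted p = 0.088), and 0.62 (SE 0.17, adjusted p = 0.051) on the dimmer probe set. For HIF1A the changes were -0.43 in B, -0.24 in G, -0.13 in H and 0.23 in M. In limma 0 of 17 members passed between replicate numbers, against 13.4% of all probe sets, with 4 higher and 2 lower at an unadjusted p under 0.05 beside 31.3% of all. EGLN1, the brighter HIF1AN and the dimmer ELOB probe set read higher on array 2 in 4 of 4 clones. The middle ARNT and brighter ELOC probe sets read lower on array 2 in 4 of 4. How many of all probe sets moved one way in 4 of 4 clones was not counted.

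**Figure D5:**
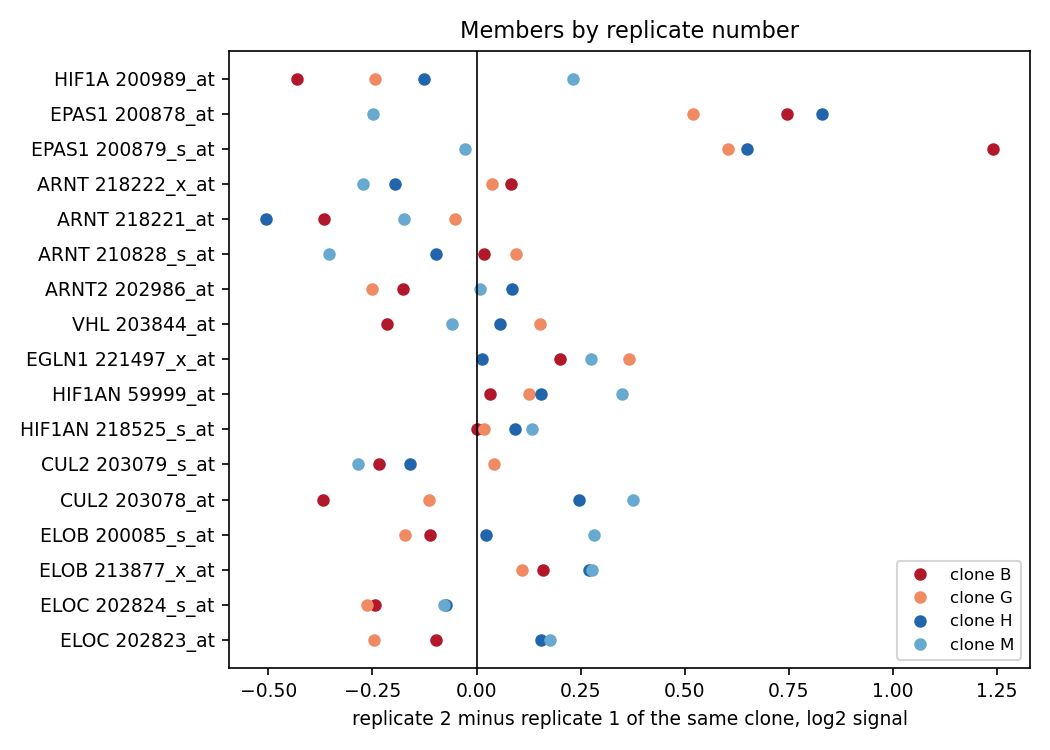
Replicate 2 minus replicate 1 of the same clone in log2 signal (x axis) for the 17 probe sets (y axis), coloured by clone. The EPAS1 changes lie between 0.52 and 1.24 in clones B, G and H and below 0 in clone M.

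Within replicate 1, EPAS1 on the brighter set differed between knockdown and control by 1.19 (limma adjusted p = 0.056), and within replicate 2 by 1.53 (adjusted p = 0.34), with 2 clones against 2 in each. HIF1A differed by -0.15 and -0.55 (limma adjusted p of 0.43 and 0.27). Within both replicate numbers, the arrays of the conditions did not overlap for 4 of 17 members, both EPAS1 probe sets and the dimmer ELOB set above and HIF1A below, beside 23.9% of all probe sets. The replicate block fit kept the EPAS1 call (limma adjusted p = 0.041) and added no member. In the test of the difference between replicate numbers, 0 of 17 members passed in limma, as did 0% of all probe sets. At an unadjusted p under 0.05 there were 6 of 17 members, 1 positive and 5 negative, beside 8.56% of all probe sets. HIF1A was among the negative ones at -0.39 (SE 0.13, limma adjusted p = 0.54), and the dimmer CUL2 set had the largest size of those 6 at -0.55 (SE 0.17, adjusted p = 0.53).

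Other genes of the pathway were taken from a list of 23, of which 18 had a probe set. In limma 4 of the 18 had an unadjusted p under 0.05, beside 19.9% of all probe sets. After adjustment 0 of the 18 passed, where 3.14% of all genes were called on their brightest probe set. The median was 0.00062, beside 0.0014 over all genes, with 9 positive and 9 negative. SIAH2, a ubiquitin ligase for prolyl hydroxylases, read 9.60 to 9.83 in knockdown and 9.32 to 9.46 in control arrays, a difference of 0.32 (SE 0.08, limma adjusted p = 0.058). CREBBP, the coactivator gene whose product binds active HIF, differed by 0.34 (SE 0.09, limma adjusted p = 0.077). WSB1, a ubiquitin ligase adaptor gene, differed by -0.48 (adjusted p = 0.15), and USP33, a deubiquitinase gene, by 0.18 (adjusted p = 0.24). RBX1, the RING subunit of the VHL ligase, differed by 0.052, and HIF3A, the gene of a further alpha subunit, by 0.054.

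Targets of the factors were read from 2 lists. Of 25 targets of HIF-1 or of both factors, 23 were measured, ADM rose and ERO1A fell, beside 3.14% of all genes called. At an unadjusted p under 0.05 there were 6 of the 23, beside 19.9% of all probe sets. Of the differences 10 were positive and 13 negative, with a median of -0.022 beside 0.0014 over all genes. ADM, which encodes the vasodilator peptide adrenomedullin, read 8.96 to 9.35 in knockdown and 8.19 to 8.85 in control arrays, a rise of 0.68 (limma adjusted p = 0.042). ERO1A, of oxidative protein folding, fell by 0.61 (adjusted p = 0.012). VEGFA, the angiogenic growth factor gene, differed by 0.98 (SE 0.35, limma adjusted p = 0.16), with H minus M at 0.88 and replicate 2 minus replicate 1 at 0.82. P4HA2, a collagen prolyl hydroxylase gene, differed by -0.45 (adjusted p = 0.095) and fell with the replicate block (adjusted p = 0.045).

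Of 12 targets often attributed mainly to HIF-2, 8 were measured. In limma 0 passed, beside 3.14% of all genes called, and 0 had an unadjusted p under 0.05, beside 19.9% of all probe sets. Their median difference was 0.018, beside 0.0014 over all genes. LOXL2, a matrix cross-linking enzyme gene, differed by -0.97 (SE 0.44, adjusted p = 0.26) with H minus M at -1.87. CCND1, the cyclin D1 gene, differed by 0.34, SLC11A2, an iron transporter gene, by 0.12 and EPO, the erythropoietin gene, by 0.076. EGLN3, a hydroxylase gene that is also on the pathway list, differed by -0.013.

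Markers of cell types that could accompany EPAS1 were set beside it. Of 8 mesenchymal or fibroblast markers 0 passed in limma, beside 3.14% of all genes called. An unadjusted p under 0.05 was found for 3, beside 19.9% of all probe sets. Differences of these markers were negative in 8 of 8, with a median of -0.98. The mean of the 8 was 7.75 to 8.74 in knockdown and 8.46 to 10.06 in control arrays. By clone the mean was 8.24 in B, 8.26 in G, 8.61 in H and 9.89 in M, the reverse of the EPAS1 order, and the part of these markers in the EPAS1 difference was not tested. In bulk arrays, fewer cells of a type and less RNA per cell cannot be told apart.

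In limma 0 of the neuroblast markers passed, beside 3.14% of all genes called. An unadjusted p under 0.05 was found for 2, beside 19.9% of all probe sets. Differences of these markers were positive in 9 of 9 (median 0.13). Their median H minus M was 0.16, larger than that between conditions. Their mean was 12.10 in B, 12.15 in G, 12.07 in H and 11.81 in M, so clone M alone stood low. Of 4 chromaffin markers PNMT, the adrenaline synthesis gene, rose by 0.39 (limma adjusted p = 0.049), a call that ended with the replicate block (adjusted p = 0.074), beside 3.14% of all genes called. All 4 were positive, with a median of 0.41 beside a median H minus M of 0.32, and with a mean of 9.95 to 10.27 in knockdown and 9.54 to 9.95 in control arrays. The 7 endothelial markers, of a cell type with high EPAS1, had a mean of 6.16 to 6.30 in knockdown and 6.22 to 6.35 in control arrays. The dimmest, CDH5, averaged 4.72 and 4.73, and the brightest, EGFL7, 8.73 and 8.69. The 5 leukocyte markers had a mean of 5.69 to 5.82 in knockdown and 5.78 to 5.84 in control arrays. In both lists 0 passed in limma, beside 3.14% of all genes called. An unadjusted p under 0.05 was found for 0 in both, beside 19.9% of all probe sets.

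The genes whose signal was most like that of the brighter EPAS1 set over the 8 arrays were RGS7, a regulator of G protein signalling, at Pearson r = 0.99, and NAGPA and PARD6A at 0.98 each. RGS7 read 8.86 and 9.53 in B, 8.89 and 9.31 in G, 7.98 and 8.89 in H, and 7.82 and 7.42 in M, and differed by 1.12 (SE 0.28, limma adjusted p = 0.070). NAGPA differed by 0.26 and PARD6A by 0.23, and neither passed.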

How the data were processed

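RNA was measured on 8 oligonucleotide arrays, 2 for each of 4 clones. The submitters' processing notes name GCOS and RMA; their versions are not given in the sources used here. Values deposited by the authors are signals per probe set in log2 units, as their range shows. RMA aligns the arrays to one distribution and can compress large differences. No detection calls were used, and precision is limited by there being 8 arrays.

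Of 22277 probe sets, 62 manufacturer controls were left out. The array annotation named 1 gene for 19064, 19052 of them matched to RefSeq by gene ID. The fit across all 22215 probe sets used limma 3.58.1 (R 4.3.3, statmod 1.5.0), lmFit and eBayes with a trend and clone as a random block (consensus correlation -0.068, and 0.24 with replicate number in the model). A negative correlation narrows the error between conditions. For the brighter EPAS1 set the SE was 0.29 and the limma adjusted p 0.042 with the block, and 0.30 and 0.055 without it. Two-sided p-values were adjusted by Benjamini-Hochberg over all probe sets, with 0.05 as threshold. Clones were compared with 1 mean per clone and a shared duplicate spread. The fit between knockdown and control was tested on simulated arrays that held no clone or replicate effect. That simulation cannot show how the fit handles such effects, and the other fits were not simulated.

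The titles number the arrays of each clone 1 and 2. Over all probe sets, arrays with the same number deviated together from the mean of their clone in all 6 pairs of clones (r = 0.42 to 0.78), so the pairing rests on those numbers and the data. A replicate block was an alternative. The labels do not say whether duplicates were separate cultures, so p-values measure the spread between arrays, which may be technical.

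The members and lists were chosen with earlier results of these data known. Named genes were every member, PARK7, from each list the 4 or fewer genes of lowest p, and for a called member the 3 most alike genes and 3 measured neighbours on each side. The neighbours are not reported here. Of 95 listed genes 81 had a value. RBX1, HIF3A, EGLN3, CDH5, TH and probe sets named by replicate number were chosen after their values were seen. Gene lists are described by counts and medians over the brightest probe set of each gene.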

Additional observations from a re-analysis of the deposited data

Results flagged for a closer look

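The middle ARNT probe set had 1 array far from the others of its group. Array B1 read 8.84, while the other 3 knockdown arrays lay between 8.48 and 8.54, a gap of 0.84 of the whole range, above Dixon's critical value. Of 34 groups of 4 arrays tested over the members, 1 was picked out, and chance gives about 1 in 20.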

How the results depend on the processing

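Of 17 member differences, 9 changed sign under at least 1 alternative, and 0 of the 21 values with a changed sign passed the test. The brighter EPAS1 set was positive in 22 of 22 alternatives and lost its call with 1.36 (no clone block, and clone means), 1.31 (quantile normalization), 1.27 and 1.44 (without clone B or G), 1.19 and 1.53 (replicate 1 or 2 alone) and 1.17 (mean of its probe sets). Leaving out single arrays gave 1.12 to 1.69. The count of members called higher was 0 in those fits, the mean of probe sets not counted, 0 to 3 without single arrays, 4 without clone H, and 2 with the replicate block and no clone block, an alternative added after seeing the data. The count called lower was 2 without clone H, 0 to 1 without single arrays, and 0 in the other fits. The replicate block with the clone block gave 1.36 for EPAS1 and changed no member's call. VHL gave no value when the dimmest 25% of probe sets were left out.

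Signs turned as follows. Quantile normalization gave -0.0017 for the brighter CUL2 and -0.023 for the brighter ELOC set. Without clone B these were -0.035 and -0.0052. Without clone H the dimmer CUL2 set was -0.032, and without clone M EGLN1 was 0.20 and the brighter ELOC set -0.011. In replicate 1 alone the brighter CUL2 set was -0.022 and the brighter ELOB set 0.066. In replicate 2 alone the brightest ARNT set was 0.020, the dimmest ARNT set 0.12, ARNT2 -0.077, the brighter HIF1AN set -0.016, the dimmer CUL2 set -0.18 and the brighter ELOC set -0.052. The mean of a gene's probe sets was 0.0052 for ARNT and 0.058 for ELOB. Without single arrays the brighter CUL2 set ran from -0.025 to 0.097, the brighter ELOC set from -0.017 to 0.093, the dimmest ARNT set from -0.070 to 0.030 and EGLN1 from -0.33 to 0.038. The cause was not tested. With 2 clones per condition and no detection calls, small differences and low signals such as that of VHL are poorly resolved.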
